A study of Homo sapiens with 12 samples.

Results

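AP-1 is a family of transcription factors, and 8 genes that encode its main members were followed here: FOS, FOSB, FOSL1, FOSL2, JUN, JUNB, JUND and ATF3. They were taken by name, through the match of Ensembl identifiers to GENCODE symbols, with no threshold on their values, although the family was picked with earlier results of these data known. All 8 were among the 26058 genes listed and among the 22067 genes that passed the filter on low values. RNA had been sequenced from HEK293 cells, a human embryonic kidney line (WT), and from AMPK KO cells, HEK293 cells in which CRISPR had been used to disrupt PRKAA1 and PRKAA2, the genes for both catalytic subunits of AMP-activated protein kinase (AMPK). Whether the AMPK KO line was 1 clone was not stated in the sources used here. Every group was starved of serum for 24 h. In each line, DMSO cells received only the solvent, and DMSO+EGF cells received DMSO and, after 20 min, epidermal growth factor (EGF) for 30 min. The cordycepin+EGF cells received 25 µM cordycepin, dissolved in DMSO, before the same EGF step. Cordycepin, or 3′-deoxyadenosine, resembles adenosine, and its triphosphate can end the RNA chain during polyadenylation. The study states that pre-mRNA synthesis as a whole is not ended in this way in intact cells. The labels gave the EGF concentration as 15 in conflicting units (µM or nM), and the DMSO-only time as 20 or 50 min. There were 12 libraries in 6 groups, with 2 replicates a group numbered 2 and 3. The comparisons asked how EGF changed the family, how cordycepin changed it in stimulated cells, and whether either response differed without AMPK.

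AP-1 proteins bind DNA in pairs through a basic leucine zipper. FOS-type proteins (FOS, FOSB, FOSL1, FOSL2) cannot pair with each other and need a JUN-type partner, whereas JUN, JUNB and JUND can also pair among themselves. ATF3 is a related zipper protein, best known from stress responses, that pairs with JUN proteins and can repress its targets. Growth factors activate ERK kinases, which act through ternary complex factors and other proteins bound at the FOS gene, so that FOS is transcribed within minutes. FOS, FOSB, JUN and JUNB are therefore called immediate early genes, FOSL1 is known as a later target, and JUND is known for steady expression in resting cells.

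The promoters of 4 members are shown because FOS and FOSB passed the test with EGF in WT cells, while JUN and JUND, the most abundant members, did not. Each line gives the 150 bases before the RefSeq transcription start (GRCh38.p14), 5′ to 3′ on the strand of the gene. The windows were chr14:75278678-75278827 (plus strand), chr19:45467846-45467995 (plus strand), chr1:58784048-58784197 (minus strand) and chr19:18281623-18281772 (minus strand). Capitals mark TGACGT, the core of a cyclic AMP response element, on either strand, or TGACATCA, the AP-1-like element known from the JUN promoter.
FOS: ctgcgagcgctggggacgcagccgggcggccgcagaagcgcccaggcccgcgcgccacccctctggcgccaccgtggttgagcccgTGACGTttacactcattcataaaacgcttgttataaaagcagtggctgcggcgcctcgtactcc
FOSB: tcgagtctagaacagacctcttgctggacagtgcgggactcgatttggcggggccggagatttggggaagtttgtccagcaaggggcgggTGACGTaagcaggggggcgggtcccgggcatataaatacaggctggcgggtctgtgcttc
JUN: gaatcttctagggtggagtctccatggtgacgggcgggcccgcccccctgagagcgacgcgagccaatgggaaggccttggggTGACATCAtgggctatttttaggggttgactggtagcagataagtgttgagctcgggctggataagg
JUND: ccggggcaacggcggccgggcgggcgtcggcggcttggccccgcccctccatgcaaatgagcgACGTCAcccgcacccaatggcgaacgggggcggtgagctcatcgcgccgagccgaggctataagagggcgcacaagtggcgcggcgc
The 250 bases before the start were searched on both strands for every promoter listed, and 7.1% of 35116 held TGACGT. It was found at -64 to -59 in FOS, -60 to -55 in FOSB and -66 to -61 in FOSL2, counted from the start, and 3 times in JUND, where a pair of matches overlapped. TGACATCA was in 2.37% of promoters, at -67 to -60 in JUN and at -123 to -116 in 1 of 2 ATF3 windows. A TATAAA box (10.7% of promoters) was in FOS, FOSB and JUNB within the bases -33 to -25, and in the other ATF3 window further upstream. CCAAT (32% of promoters) was in JUN, JUNB, JUND and the first ATF3 window. The letters of an AP-1 site, TGACTCA (4.2% of promoters), and of a CArG box (1.16%) were in none of the windows searched. A site more than 250 bases before the start, or after it, would have been missed, so these genes may still have one. These are matches of letters and not measured binding. FOSL1 was not searched.

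In the GENCODE annotation the members lie apart in the genome, except that FOSB (chromosome 19, 45467995 to 45475179, plus strand), JUNB (chromosome 19, 12791486 to 12793315, plus strand) and JUND (chromosome 19, 18279694 to 18281622, minus strand) share a chromosome. FOS (ENSG00000170345) is at chromosome 14, 75278826 to 75282230, plus strand, and JUN (ENSG00000177606) at chromosome 1, 58776845 to 58784048, minus strand. ATF3 is also on chromosome 1, FOSL1 is on chromosome 11 and FOSL2 on chromosome 2. All 8 are protein coding. Exons of HOOK2, on the opposite strand, overlap JUNB by 259 bases, and whether the counting used strand was not stated, so JUNB values carry this uncertainty. HOOK2 itself was at 1.18 to 2.03 RPKM over the 12 libraries, and its log2 fold change with EGF was 0.30 in WT and -0.32 in AMPK KO cells (adjusted p 0.548 and 1).

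Values are RPKM, reads scaled to gene length and to library depth, so that levels of different genes can be set side by side. Depth was uneven, with 3928008 reads recovered in WT DMSO replicate 3 and 12358206 to 25845303 in the others, and the log2 values of the WT DMSO replicates correlated least (r 0.918 across genes, against 0.961 to 0.977). PRKAA1 was at 11.2 to 21.9 RPKM in the WT and 7.03 to 8.51 RPKM in the AMPK KO libraries, and PRKAA2 at 6.78 to 12.1 and 5.39 to 7.43 RPKM. PRKAA1 was lower in AMPK KO than in WT cells in DMSO (log2 fold change -1.26, adjusted p 0.0228, SE 0.167) and PRKAA2 was at -0.73 (adjusted p 0.112, SE 0.202). Of the HEK293 markers, VIM was at 49.1 to 82.3 RPKM, NEFL at 12.4 to 33.7, KRT8 at 8.0 to 14.0 and KRT18 at 11.7 to 18.5, whereas NES, NEFM and PAX2 stayed at or under 0.851 RPKM. Of 6 markers of blood, liver, endothelial and connective tissue cells, 4 were not in the table, PTPRC was at most at 0.0610 RPKM and COL1A1 at most at 1.21 RPKM.

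**Figure D1:**
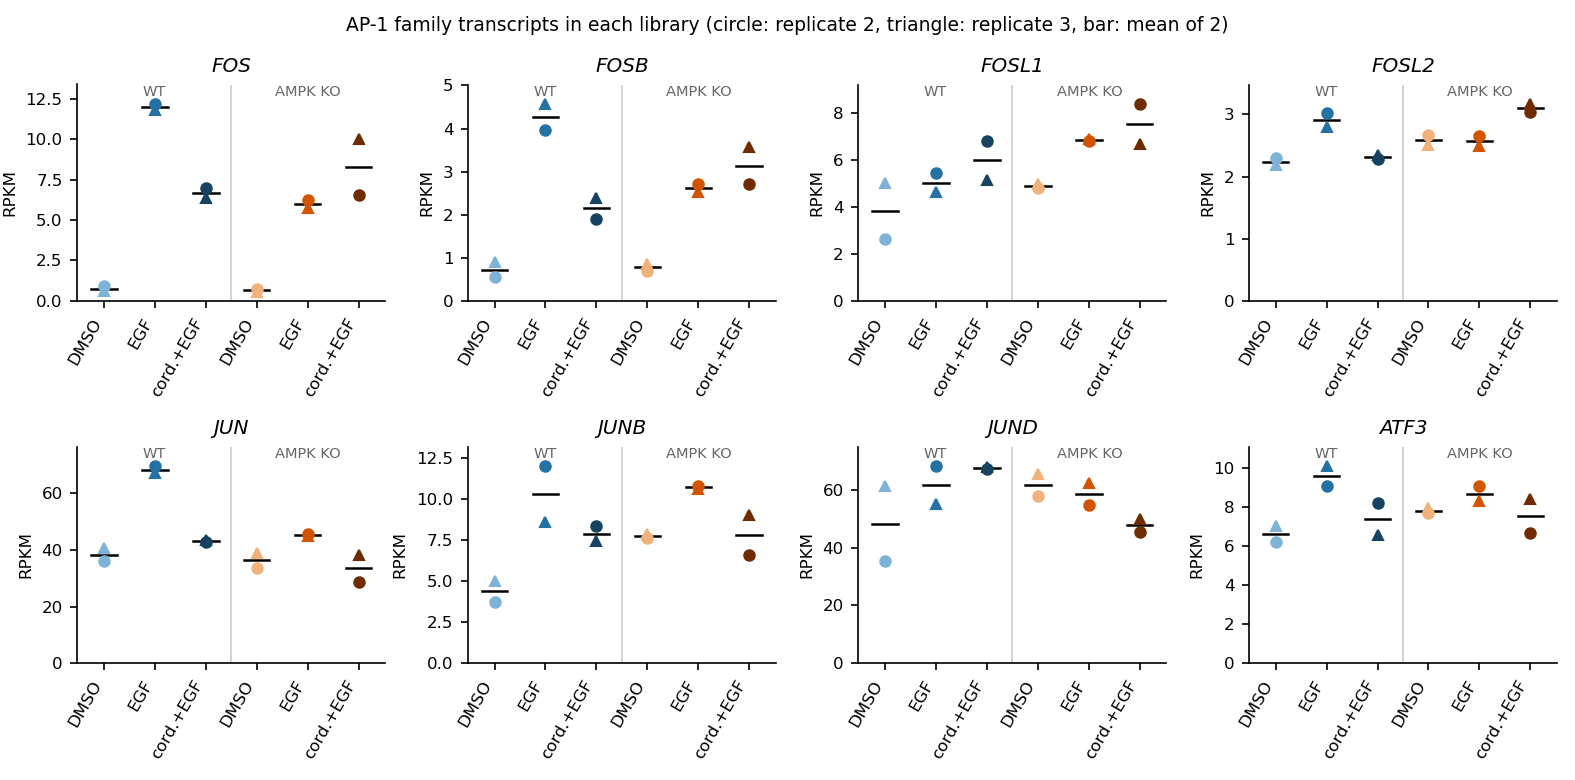
RPKM of each AP-1 gene (y axis, from 0, a separate scale per gene) in the 6 groups (x axis), with WT on the left and AMPK KO on the right of each panel. Circles are replicate 2, triangles replicate 3 and bars the mean of both. FOS and FOSB stand lowest in the 4 DMSO libraries, and JUN stands highest in the 2 WT DMSO+EGF libraries.

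JUND and JUN made up most of the family transcripts in every library. In WT DMSO cells JUND took 45.1% ± 6.89 (SD, n = 2) of the summed RPKM of the 8 genes and JUN 37.1% ± 5.69. ATF3 took 6.38% ± 0.945, JUNB 4.17% ± 0.110 and FOSL1 3.54% ± 0.747. FOSL2, FOS and FOSB each took less than FOSL1, and FOS held 0.769% ± 0.369. With EGF the FOS share was 6.89% ± 0.365 in WT cells, and with cordycepin and EGF it was 4.67% ± 0.241. In AMPK KO cells the same shares of FOS were 0.539% ± 0.158, 4.24% ± 0.342 and 6.89% ± 1.2. JUN-type transcripts therefore outnumbered FOS-type transcripts in all groups. Summed over JUN, JUNB and JUND the level was 91.1 ± 22.6 RPKM (SD, n = 2) in WT DMSO, 140 ± 13.3 in WT DMSO+EGF and 119 ± 0.489 in WT cordycepin+EGF. Summed over FOS, FOSB, FOSL1 and FOSL2 it was 7.55 ± 1.63, 24.2 ± 0.553 and 17.1 ± 1.2 RPKM in the same groups. In AMPK KO cells the JUN-type sums were 106 ± 9.30, 115 ± 4.64 and 89.2 ± 11.7 RPKM, and the FOS-type sums 8.91 ± 0.00812, 18.0 ± 0.507 and 22.0 ± 1.95 RPKM. The FOS-type sums were lowest in the DMSO groups of both lines, at 6.40 and 8.71 RPKM in the WT and 8.91 and 8.90 RPKM in the AMPK KO libraries. The lowest JUN-type sums, those of WT DMSO and AMPK KO cordycepin+EGF, overlapped in their libraries. These sums were not tested. In these bulk samples, fewer cells that use a gene and less of its RNA per cell cannot be told apart.

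**Figure D2:**
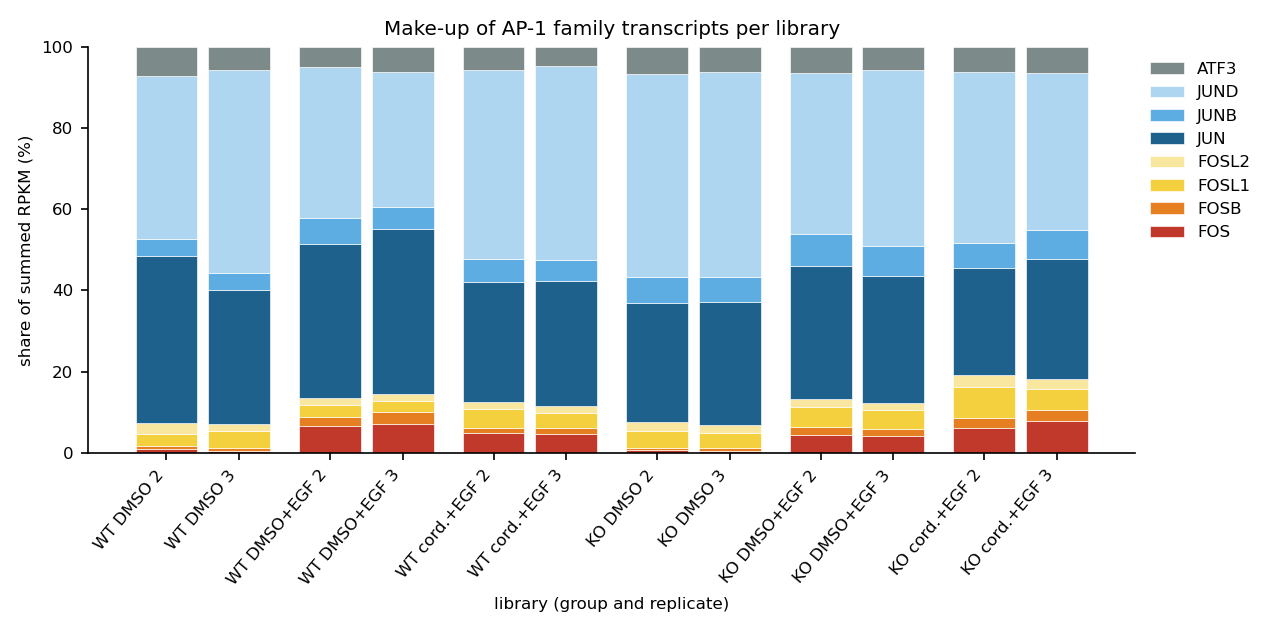
Share of each gene in the summed RPKM of the 8 AP-1 genes (y axis, percent) in each of the 12 libraries (x axis, group and replicate). JUND and JUN fill most of every bar, and the FOS segment is 0.769% in WT DMSO and 6.89% in WT DMSO+EGF on average.

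In WT cells EGF raised FOS and FOSB. FOS, the founding FOS-type partner, stood at 0.903 and 0.624 RPKM in the DMSO libraries (replicates 2 and 3) and at 12.2 and 11.8 RPKM in the DMSO+EGF libraries. The groups were far apart, and the ratio of their means was 15.7. The lowest value rested on 8 reads, with an exact Poisson 95% interval of 0.269 to 1.23 RPKM that covers counting error only. On the log2(RPKM + 0.5) scale used for the main tests FOS rose by 3.29 (adjusted p 0.000593, SE 0.209). FOSB, which also exists as a shorter form without the activation domain, stood at 0.550 and 0.895 RPKM in DMSO and at 3.97 and 4.56 RPKM in DMSO+EGF. It rose by 1.95 (adjusted p 0.0282, SE 0.203). These were 2 of the 8 members, where 0.0227% of all genes tested (5 genes) were called higher. Neither gene was called in a fit of the compared groups alone. The FOSB call was also lost when any of 9 of the 12 libraries was left out, listed with the effects of processing, and with replicate number as a block inside each line (adjusted p 0.0575), whereas FOS was called with each library left out.

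JUNB and JUN had the next largest values in WT cells and did not pass adjustment. JUNB, a JUN-type protein that activates more weakly than JUN, was at 3.72 and 5.02 RPKM in DMSO and at 12 and 8.64 RPKM in DMSO+EGF, a log2 fold change of 1.12 (adjusted p 0.379, SE 0.203). JUN, the main partner of FOS, was at 36.1 and 40.6 RPKM in DMSO and at 69.6 and 67.3 RPKM in DMSO+EGF. Its replicates agreed closely and the groups did not overlap, with a log2 fold change of 0.80 (adjusted p 0.350, SE 0.140). In RPKM the difference of JUN was the largest of the family, while its ratio of means was 1.78. JUNB joined FOS and FOSB past the threshold of the study (unadjusted p up to 0.05 together with a log2 fold change of 1 or more in size), as 3 of 8 members against 0.979% of all genes on the higher side. Altogether 6 of 8 members were higher in both DMSO+EGF libraries than in both DMSO libraries, a pattern held by 20.5% of all genes. The exceptions were FOSL1 and JUND, whose WT DMSO replicates lay apart (2.65 and 5.00 RPKM for FOSL1, 35.3 and 61.4 RPKM for JUND).

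ATF3 went from 6.18 and 7.01 RPKM in DMSO to 9.04 and 10.1 RPKM in DMSO+EGF, a log2 fold change of 0.48 (adjusted p 0.476, SE 0.152). FOSL2 (2.30 and 2.19 RPKM against 3.02 and 2.79 RPKM) was at 0.29, FOSL1 at 0.38 and JUND at 0.36. The sign for FOSL1 and JUND turned when WT DMSO replicate 2 was left out (-0.018 and -0.025). The median log2 fold change of the 8 members was 0.64, and that of all genes tested was 0.02.

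In AMPK KO cells EGF raised FOS. It stood at 0.755 and 0.552 RPKM in DMSO and at 6.22 and 5.75 RPKM in DMSO+EGF, a ratio of means of 9.16. The log2 fold change was 2.5 (adjusted p 0.00624, SE 0.209). This call, 1 of 8 members against 0.0136% of all genes (3 genes), was lost in a fit of the compared groups alone (adjusted p 0.333) and with replicate number as a block inside each line (adjusted p 0.0591). It was also lost when AMPK KO DMSO replicate 3 or either AMPK KO DMSO+EGF library was left out (adjusted p up to 0.147). FOSB was at 0.702 and 0.863 RPKM in DMSO and at 2.71 and 2.53 RPKM in DMSO+EGF, with a log2 fold change of 1.29 (adjusted p 0.611, SE 0.203). The groups of FOSB did not overlap, and it passed the threshold of the study together with FOS (2 of 8 against 0.285% of all genes).

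No JUN-type member passed with EGF in AMPK KO cells. JUN was at 33.7 and 39.1 RPKM in DMSO and 45.7 and 44.9 RPKM in DMSO+EGF, a log2 fold change of 0.32 (SE 0.140). JUNB was at 7.64 and 7.86 RPKM and then at 10.8 and 10.6 RPKM, a log2 fold change of 0.46 (SE 0.203). JUND (57.9 and 65.5 RPKM against 55.0 and 62.5 RPKM) overlapped between the groups. FOSL1, known as a target of ERK signalling that builds up later, was at 4.79 and 4.98 RPKM and at 6.78 and 6.87 RPKM, a log2 fold change of 0.45 (SE 0.253). ATF3 was at 0.15 and FOSL2 at 0.00, with FOSL2 libraries overlapping. None of these 6 passed, with an adjusted p of 1 each. Altogether 6 of 8 members did not overlap and were higher with EGF, against 19.2% of all genes, and the median log2 fold change was 0.39 (0.01 over all genes).

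**Figure D3:**
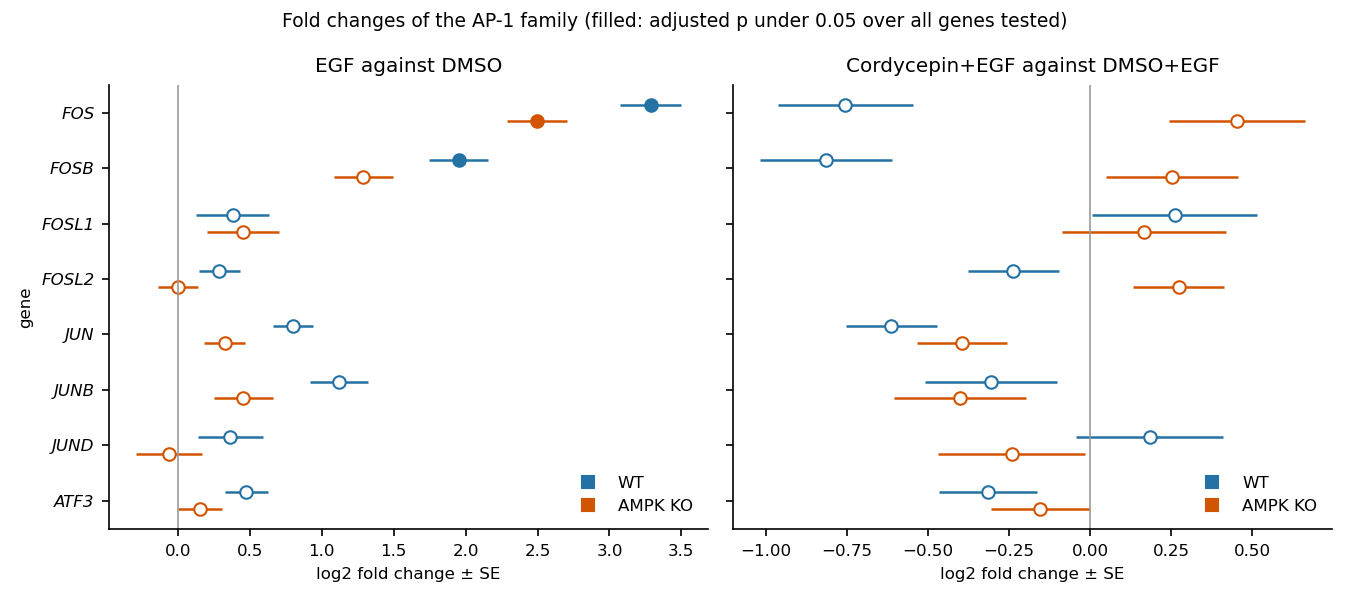
Log2 fold change on the log2(RPKM + 0.5) scale (x axis) with its standard error for each AP-1 gene (y axis), for EGF against DMSO on the left and for cordycepin+EGF against DMSO+EGF on the right. Blue is WT, orange is AMPK KO and filled points had an adjusted p under 0.05. With EGF, FOS was at 3.29 in WT and 2.5 in AMPK KO cells, and with cordycepin FOS and FOSB lie on opposite sides of 0 in the lines.

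The EGF response of the family was compared between the lines as an interaction (AMPK KO minus WT). For FOS it was -0.79 (SE 0.296), for FOSB -0.66 (SE 0.288), for JUNB -0.66 (SE 0.287) and for JUN -0.48 (SE 0.197). Each of these 4 had an unadjusted p under 0.05, as did 5.38% of all genes on that side, and an adjusted p of 0.570. The other values were -0.43 for JUND, -0.32 for ATF3, -0.29 for FOSL2 and 0.07 for FOSL1. No member was called, with 0% of all genes called, and limma-voom on the recovered reads called 0 members too. A smaller response of the family in AMPK KO cells was therefore not shown by these tests. By quantitative PCR (RT-qPCR) in the same experiment, the study reported a weaker FOS response to EGF in AMPK KO cells. JUNB did not pass between the lines before EGF, where its DMSO libraries were at 3.72 and 5.02 RPKM in WT and at 7.64 and 7.86 RPKM in AMPK KO cells (log2 fold change 0.75, adjusted p 0.108, SE 0.203).

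After EGF, FOS and JUN were lower in AMPK KO than in WT cells without passing adjustment. FOS had 0.50 of the WT level, with a log2 fold change of -0.93 (adjusted p 0.0580, SE 0.209). JUN was at -0.57 (adjusted p 0.0674, SE 0.140) and FOSB at -0.59 (adjusted p 0.135, SE 0.203). In a fit of the compared groups alone, FOS and JUN were called, 2 of 8 where 5.12% of all genes were called lower. Limma-voom called FOS, FOSB and JUN, 3 of 8 where 6.09% of all genes were called lower. Both libraries of the AMPK KO line were below both WT libraries for 5 members (FOS, FOSB, FOSL2, JUN and ATF3), against 32.8% of all genes, and above them for FOSL1, against 30% of all genes. In DMSO, 3 members (FOSL2, JUNB and ATF3) were above, against 26.4% of all genes. No member was called in either comparison by the main test, where 1.74% of all genes were called in DMSO+EGF and 0.44% in DMSO. An unadjusted p under 0.05 was reached by 3 members in DMSO+EGF (11.4% of all genes were lower at that level) and by JUNB in DMSO (12% of all genes were higher). Limma-voom called JUNB in DMSO, where 4.76% of all genes were called higher.

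Cordycepin given before EGF was followed by lower values of FOS, FOSB and JUN in WT cells, none of which passed adjustment by the main test. FOS was at 12.2 and 11.8 RPKM with EGF and at 6.99 and 6.38 RPKM with cordycepin and EGF, 0.558 of the level without cordycepin. The log2 fold change was -0.76 (adjusted p 0.262, SE 0.209). FOSB was at 3.97 and 4.56 RPKM and then at 1.91 and 2.38 RPKM, a log2 fold change of -0.81 (adjusted p 0.262, SE 0.203). JUN was at 69.6 and 67.3 RPKM and then at 42.7 and 43.7 RPKM, a log2 fold change of -0.61 (adjusted p 0.252, SE 0.140). In all 3 genes both cordycepin libraries lay below both libraries without it and above both DMSO libraries.

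Limma-voom on the recovered reads called FOS (-0.84, adjusted p 0.0340), FOSB (-1.01, adjusted p 0.0313) and JUN (-0.67, adjusted p 0.0321) as lower, 3 of 8 members where it called 2.35% of all genes lower. The main test, limma on RPKM, called 0 of 8 and 0.00453% of all genes (1 gene) as lower. An unadjusted p under 0.05 was reached by 3 members and by 7.13% of all genes on the lower side. Over all 9 alternatives the log2 fold change stayed at -0.84 to -0.72 for FOS, -1.01 to -0.71 for FOSB and -0.67 to -0.61 for JUN. Altogether 6 of 8 members did not overlap and were lower with cordycepin, against 27.8% of all genes. Beyond FOS, FOSB and JUN these were ATF3 (9.04 and 10.1 RPKM against 8.18 and 6.57 RPKM, log2 fold change -0.32), JUNB (12 and 8.64 RPKM against 8.36 and 7.46 RPKM, -0.31) and FOSL2 (3.02 and 2.79 RPKM against 2.28 and 2.35 RPKM, -0.24). The JUNB value came to -0.069 when WT DMSO+EGF replicate 2 was left out and to -0.54 when replicate 3 was, and ATF3 ranged from -0.48 to -0.15 with 1 library left out. FOSL1 (0.26) and JUND (0.18) overlapped between the groups. The median log2 fold change of the members was -0.31, and that of all genes was 0.03.

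In AMPK KO cells FOS was not lower with cordycepin in these libraries, and no member passed the test. By RT-qPCR in the same experiment, the study reported a weaker rise of FOS with cordycepin in both lines. The AMPK KO values here differ from that report, and the reason was not tested. FOS was at 6.22 and 5.75 RPKM with EGF and at 6.54 and 10.0 RPKM with cordycepin and EGF, where the replicates lay apart. The log2 fold change was 0.45 (adjusted p 0.248, SE 0.209), and it came to 0.17 when replicate 3 of the AMPK KO cordycepin+EGF group was left out and to 0.73 when replicate 2 was. FOSB (2.71 and 2.53 RPKM against 2.71 and 3.57 RPKM) overlapped between the groups, with a log2 fold change of 0.25 (adjusted p 0.494, SE 0.203). JUN was at 45.7 and 44.9 RPKM and then at 28.7 and 38.4 RPKM, a log2 fold change of -0.40 (adjusted p 0.157, SE 0.140). JUNB (10.8 and 10.6 RPKM against 6.60 and 9.06 RPKM) was at -0.40 and JUND (55.0 and 62.5 RPKM against 45.7 and 50.1 RPKM) at -0.24. Leaving out replicate 2 or replicate 3 of AMPK KO cordycepin+EGF moved JUN to -0.20 or -0.59, JUNB to -0.19 or -0.61 and FOSB to 0.42 or 0.087. FOSL2 was at 0.27, FOSL1 at 0.17 (0.0047 to 0.33 with 1 library left out) and ATF3 at -0.15 (-0.30 to -0.0056).

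In AMPK KO cells FOS and FOSL2 were higher in both cordycepin libraries (2 of 8 against 29.2% of all genes) and JUN, JUNB and JUND lower (3 of 8 against 30% of all genes). These shares were near those of all genes. No member was called by the main test, which called 0.471% of all genes, or by limma-voom, and JUN, on the lower side with 10.1% of all genes, had an unadjusted p under 0.05. The median log2 fold change was 0.01 (0.06 over all genes).

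**Figure D4:**
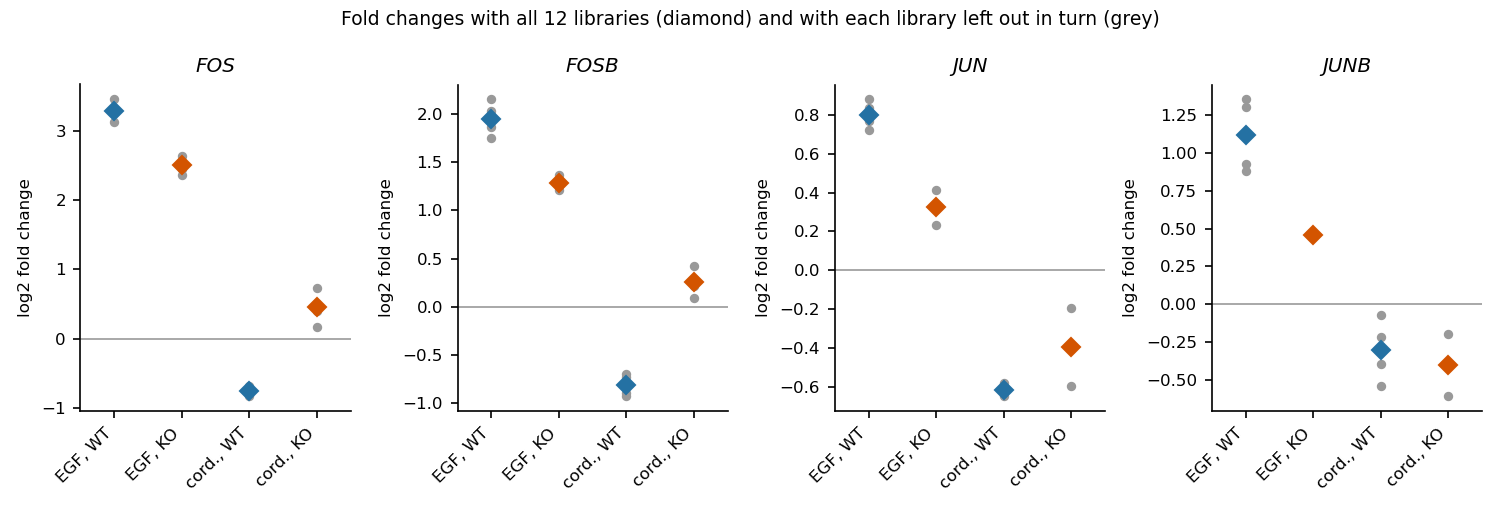
Log2 fold change (y axis, a separate scale per gene) of FOS, FOSB, JUN and JUNB for 4 comparisons (x axis, EGF against DMSO and cordycepin+EGF against DMSO+EGF in each line). Diamonds are values with all 12 libraries and grey points values with 1 library left out. No point crosses 0, and FOS in AMPK KO cells with cordycepin runs from 0.17 to 0.73.

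The cordycepin response was compared between the lines as an interaction (AMPK KO minus WT). It was 1.21 for FOS (adjusted p 0.122, SE 0.296) and 1.07 for FOSB (adjusted p 0.126, SE 0.288). FOSL2 followed with 0.51 (adjusted p 0.192, SE 0.198), and the other members lay between -0.43 (JUND) and 0.22 (JUN). By limma on RPKM 0 members and 0% of all genes were called. An unadjusted p under 0.05 was reached by FOS, FOSB and FOSL2 (10.9% of all genes were higher at that level), and FOS and FOSB passed the threshold of the study (2 of 8 against 5.33% of all genes). Limma-voom called both, with 1.29 for FOS (adjusted p 0.0157) and 1.27 for FOSB (adjusted p 0.0178), where it called 5.19% of all genes on that side. In a fit of the compared groups alone FOS was called (2.65% of all genes on that side). With 1 library left out, the interaction was 0.93 to 1.49 for FOS and 0.90 to 1.23 for FOSB. The cordycepin comparisons share their DMSO+EGF libraries with the EGF comparisons, so their values are set side by side and not correlated.

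Against DMSO, cordycepin+EGF cells still had more FOS. The log2 fold change was 2.53 in WT cells (adjusted p 0.00559, SE 0.209) and 2.95 in AMPK KO cells (adjusted p 0.00151, SE 0.209), where FOSB was also called (1.54, adjusted p 0.0253, SE 0.203). In WT cells FOSB was at 1.14 (adjusted p 0.0796, SE 0.203). These were 1 of 8 members in WT cells (0.0634% of all genes called higher) and 2 of 8 in AMPK KO cells (0.331%). None of them was called in a fit of the compared groups alone. The WT call of FOS was also lost without either WT cordycepin+EGF library, and the FOSB call when any library other than those of WT DMSO was left out. With WT DMSO replicate 3 left out, the WT log2 fold changes were 2.37 for FOS, 1.34 for FOSB, 1.04 for FOSL1 and 1.00 for JUNB. Those of JUND, JUN and FOSL2 were 0.94, 0.27 and 0.02. JUN was at a log2 fold change of 0.19 in WT cells (adjusted p 0.480). Both of its WT cordycepin+EGF libraries lay above both DMSO libraries, a pattern held by 23.3% of all genes. In AMPK KO cells JUN was at -0.07 (adjusted p 0.790), and the libraries overlapped. With cordycepin and EGF the lines were also set against each other: FOSB (0.47) and FOSL2 (0.37) were higher in both AMPK KO libraries and JUN (-0.35) and JUND (-0.47) lower, 2 of 8 on each side against 22.4% and 23.2% of all genes. By limma on RPKM 0 members were called (0.118% of all genes), and limma-voom called 0. An unadjusted p under 0.05 was reached by FOSB and FOSL2 on the higher side (7.1% of all genes) and by JUN on the lower side (6.64%).

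The order of FOS levels was WT DMSO+EGF (12 ± 0.267 RPKM, SD, n = 2), AMPK KO cordycepin+EGF (8.27 ± 2.45), WT cordycepin+EGF (6.68 ± 0.430), AMPK KO DMSO+EGF (5.98 ± 0.331), WT DMSO (0.764 ± 0.198) and AMPK KO DMSO (0.654 ± 0.143). AMPK KO and WT cordycepin+EGF libraries overlapped, and so did AMPK KO and WT DMSO libraries. FOSB ran from WT DMSO+EGF (4.27 ± 0.421 RPKM) over AMPK KO cordycepin+EGF (3.14 ± 0.609), AMPK KO DMSO+EGF (2.62 ± 0.126) and WT cordycepin+EGF (2.15 ± 0.332) to AMPK KO DMSO (0.783 ± 0.114) and WT DMSO (0.722 ± 0.244). The middle pair of AMPK KO groups overlapped in FOSB, as did the DMSO groups. JUN followed another order, with WT DMSO+EGF (68.5 ± 1.57 RPKM) above AMPK KO DMSO+EGF (45.3 ± 0.545), WT cordycepin+EGF (43.2 ± 0.661), WT DMSO (38.4 ± 3.22), AMPK KO DMSO (36.4 ± 3.80) and AMPK KO cordycepin+EGF (33.5 ± 6.86). The last 3 of these overlapped in their libraries. JUND ran from 47.9 ± 3.11 RPKM in AMPK KO cordycepin+EGF to 67.5 ± 0.462 RPKM in WT cordycepin+EGF, and the lowest mean was not separable from that of WT DMSO (48.4 ± 18.5 RPKM). ATF3 ran from 6.59 ± 0.588 to 9.55 ± 0.726 RPKM and FOSL2 from 2.24 ± 0.0786 to 3.10 ± 0.0935 RPKM.

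For each member the 2 other genes with the most similar log2 values over the 12 libraries were found by Pearson's r, as a description of libraries that share depth and handling. For FOS these were EGR2 (r 0.976) and EGR1 (r 0.975), and for FOSB they were EGR3 (r 0.982) and EGR2 (r 0.962), all zinc finger genes of the immediate early response. For JUN they were ARC (r 0.902), an activity-regulated gene, and DUSP1 (r 0.896), a phosphatase gene that acts on MAP kinases. JUND was most like MZT2B (r 0.983) and WDR18 (r 0.968). The other pairs were GPC1 and CD37 for FOSL2, SLX1A-SULT1A3 and ENSG00000280053 for FOSL1, ATF6-DT and CDIP1 for JUNB, and FBXL14 and MT1P1 for ATF3, with r of 0.839 to 0.923.

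Among the genes around AP-1, 1 passed the main test. Of 13 zipper genes that can pair with AP-1 proteins, 10 were tested, as were 13 of 14 genes of kinases that act on AP-1, all 4 genes for turnover of the proteins and 10 of 19 known AP-1 target genes. A single gene was called in a single comparison: MAF, a large zipper factor, was higher in AMPK KO than in WT cells after EGF (4.91 and 4.77 RPKM in WT, 8.35 and 7.76 RPKM in AMPK KO cells, log2 fold change 0.69, adjusted p 0.0367, SE 0.121). This was 1 of the 10 partners, where 0.929% of all genes were called higher, and leaving out any 1 of 9 libraries ended the call (all but AMPK KO cordycepin+EGF replicate 2 and the WT DMSO pair). The values of MAF in DMSO were 4.93 and 4.44 RPKM in WT and 7.48 and 8.36 RPKM in AMPK KO cells (log2 fold change 0.68, adjusted p 0.0511).

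With EGF in WT cells 0 genes of these lists were called by limma on RPKM or by limma-voom. An unadjusted p under 0.05 was reached by 3 partners on the higher and 1 on the lower side, 1 kinase gene on the higher and 2 on the lower side, 0 turnover genes and 1 target gene on the higher side. Over all genes 6.18% were higher and 3.53% lower at that level. The median log2 fold change was 0.31 for partners, -0.13 for kinases, -0.01 for turnover and 0.20 for target genes (0.02 over all genes). With EGF in AMPK KO cells no gene of the lists had an unadjusted p under 0.05 (1.03% of all genes were higher and 1.4% lower). The most abundant partner was ATF4, a stress-response factor, at 153 ± 2.28 RPKM in WT DMSO and 201 ± 56.0 RPKM in WT DMSO+EGF (log2 fold change 0.34, adjusted p 0.687). MAFG, a small zipper partner without an activation domain, was next. It was at 0.77 with cordycepin in WT cells and at -0.59 in AMPK KO cells (adjusted p 0.293 and 0.308). MAPK3, a kinase gene of the list, was at 0.01 with EGF in WT cells. COP1 and ITCH, ubiquitin ligase genes whose products act on JUN proteins, were at 0.00 and -0.01. EZR was the most abundant target gene (0.11), and TIMP1, a protease inhibitor gene, was at 33.1 and 19.4 RPKM in WT DMSO and at 43.2 and 36.4 RPKM in WT DMSO+EGF (log2 fold change 0.61, adjusted p 0.497).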

How the data were processed

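HEK293 WT and AMPK KO cells were profiled by stranded, ribosomal RNA-depleted sequencing (paired reads of 150 bases). Reads had been aligned to GRCh38.p13 and assigned to genes by the authors using Rsubread, and the deposited values are RPKM. They had discarded replicate 1 of each condition, which was not analysed here. All value columns were mapped to samples by name (0 unmapped), and 2 rows without a gene were left out. GENCODE release 44 gave symbols and positions.

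RPKM values were divided by the 75th percentile of each library, rescaled and taken as log2(value + 0.5). The filter kept genes whose mean RPKM reached 0.5. One model of 12 libraries and 6 group means was fitted with limma 3.58.1 (R 4.3.3), using moderated variances with a trend. Tests were two-sided and Benjamini-Hochberg adjusted over 22067 genes in each of 11 comparisons. SE is the moderated standard error. Residual degrees of freedom were 6, and 8.96 after moderation. The study calls its replicates biological but the sources used here do not say that they were separate cultures, so p-values measure the spread between these samples. Fold changes understate changes of low genes. Whole reads were recovered from the RPKM steps for 96.4% of genes at the annotated length and 98.8% after a length search (within 0.05 of a read). ATF3 used a length of 4040 bases from that search, against 3998 annotated. Limma-voom was run on these reads. The functions were tested on simulated data.

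The members and gene lists were chosen with earlier results of these data known. Genes named were the members, the AMPK genes, listed genes called in a comparison or among the 2 most abundant of their list, and the 2 genes most like each member. One gene that this rule names is not reported here. Alternatives were pseudocounts of 0.1 and 1, no filter, RPKM as deposited, only the groups compared, replicate blocks, voom and leaving out each library.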

Additional observations from a re-analysis of the deposited data

How the results depend on the processing

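The count of AP-1 members called did not move by over 1.5 times with pseudocounts of 0.1 or 1, without the filter, with RPKM as deposited or with a replicate block over all libraries. With only the groups compared in the fit it fell to 0 for EGF in WT, EGF in AMPK KO and cordycepin+EGF against DMSO in both lines. It was then 2 for AMPK KO against WT in DMSO+EGF (5.12% of all genes called lower) and 1 for cordycepin by cell line (2.65% called higher). Voom gave 3 for cordycepin in WT (2.35% of all genes called lower) and 2 for cordycepin+EGF against DMSO in WT (0.907% in either direction). For AMPK KO against WT it gave 1 in DMSO (4.76% called higher) and 3 in DMSO+EGF (6.09% called lower). For cordycepin by cell line it gave 2 (5.19% called higher). With 1 library left out, FOSB was lost for EGF in WT without any library except AMPK KO cordycepin+EGF replicate 2 and the WT DMSO pair. The count also fell in some of these fits for EGF in AMPK KO and for cordycepin+EGF against DMSO in both lines. Without a WT DMSO library it rose in some for cordycepin+EGF against DMSO in WT and for cordycepin by cell line. It also rose for AMPK KO against WT in DMSO (JUNB and JUND, without WT DMSO replicate 3) and in DMSO+EGF (FOS and JUN, without either WT DMSO library). Fits with 1 library left out keep a single library in that group. Where the family count rose without a WT DMSO library, the number called over all genes rose too, so these rises were not particular to the family. The cause of these moves was not tested.

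For the related lists the count was 1 for AMPK KO against WT in DMSO+EGF and 0 elsewhere. It became 4 (only the groups compared), 0 (replicate block within each cell line) and 6 (voom) there, and moved either way with 1 library left out. The shares of all genes called there were 10% (only the groups compared) and 11% (voom). Voom gave 2 for cordycepin in WT (3.68% of all genes in either direction) and 2 in AMPK KO (5.81%). For cordycepin+EGF against DMSO it gave 1 in WT (0.907%) and 3 in AMPK KO (7.02%). It gave 6 for AMPK KO against WT in DMSO (7.55%) and 5 for cordycepin by cell line (9.14%). For the latter, only the groups compared gave 2 (5.11%). For AMPK KO against WT in DMSO 1 gene (MAF) was called with a pseudocount of 0.1, no filter or RPKM as deposited. The rises without a WT DMSO library, listed next, went with rises in the number called over all genes. With 1 library left out the counts were 0 to 2 for EGF in WT (2 without WT DMSO replicate 2), 0 to 3 for cordycepin in AMPK KO and by cell line and 0 to 1 for cordycepin+EGF against DMSO in AMPK KO (the highest without either WT DMSO library), and 0 to 6 for that comparison in WT and 0 to 7 for AMPK KO against WT in DMSO (the highest without WT DMSO replicate 3).

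Replicate numbers were shared by all groups. Over genes, the replicate 2 minus replicate 3 differences of the WT groups correlated at 0.136 to 0.314 (3 pairs of groups). Those of the AMPK KO groups correlated at -0.122 to 0.031, and those of a WT with an AMPK KO group at -0.0809 to 0.322. The numbers were not taken as pairs in the main test, although the WT values were all positive. With a replicate block the counts for the family stayed at 2 for EGF in WT, 1 in AMPK KO and 0 for cordycepin in both lines (FOS with EGF in WT 3.29, adjusted p 0.00252). A block within each cell line gave 1 (FOS) for EGF in WT, 0 in AMPK KO and a JUNB value of -0.027 for AMPK KO against WT in DMSO+EGF. A crossed block, chosen after seeing the data, with the AMPK KO DMSO+EGF numbers exchanged, moved no family count and called 1 list gene for cordycepin in AMPK KO and 1 for AMPK KO against WT in DMSO.

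Signs turned for values near 0. FOSL2 with EGF in AMPK KO was at -0.0081 with RPKM as deposited and -0.0085 with voom, JUNB for cordycepin+EGF against DMSO in AMPK KO at -0.00069 with RPKM as deposited, and FOSL1 for EGF by cell line at -0.19 with voom. With 1 library left out the sign turned for the following members, given as lowest to highest log2 fold change. For EGF in WT these were FOSL1 (-0.018 to 0.78) and JUND (-0.025 to 0.75). For EGF in AMPK KO these were FOSL2 (-0.051 to 0.052) and JUND (-0.16 to 0.032). For cordycepin and EGF against DMSO in WT this was ATF3 (-0.0018 to 0.32). For cordycepin and EGF against DMSO in AMPK KO these were JUN (-0.27 to 0.13), JUNB (-0.15 to 0.26) and ATF3 (-0.15 to 0.15). For AMPK KO against WT in DMSO these were FOS (-0.30 to 0.024), FOSB (-0.13 to 0.27), FOSL1 (-0.046 to 0.75) and JUND (-0.012 to 0.77). For AMPK KO against WT in DMSO+EGF these were JUNB (-0.15 to 0.32) and JUND (-0.21 to 0.12). For AMPK KO against WT in cordycepin+EGF these were FOS (-0.0022 to 0.56), JUNB (-0.21 to 0.20) and ATF3 (-0.12 to 0.21). For EGF by cell line this was FOSL1 (-0.33 to 0.47). For cordycepin by cell line these were FOSL1 (-0.29 to 0.10), JUNB (-0.33 to 0.14) and ATF3 (-0.0014 to 0.32). Depth limits WT DMSO most, where FOS rested on 8 reads and FOSB on 20 in replicate 3.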

Other observations

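Over the 12 libraries FOS and FOSB varied most alike within the family, with a Pearson r of 0.96 between their log2 values. ATF3 and JUNB followed with 0.79, and FOSB and JUNB with 0.71. FOS and JUND had an r of 0.18, and the lowest were -0.17 for FOSL2 and JUND and -0.11 for FOSL1 and JUN. The libraries behind each r share depth and treatment, and these values are given as a description of n = 12 libraries with no test.

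Among all 22067 genes tested, FOS had the 4th largest log2 fold change with EGF in WT cells and the 2nd largest in AMPK KO cells, and FOSB ranked 42 and 48. JUNB ranked 254 and 914, and JUN 697 and 1654. ATF3 ranked 2277 and 4852.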
